A study of Mus musculus with 24 samples.

Results

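SREBP transcription factors are made as precursors in the membrane of the endoplasmic reticulum, and the transcripts described here encode those precursors and the proteins that hold, carry and cut them. The set has 7 mouse genes: Srebf1 and Srebf2, which encode the SREBP precursors, Scap, Insig1, Insig2, and Mbtps1 and Mbtps2, which encode the site-1 and site-2 proteases. Each gene was read by the probe set that the array annotation assigns to it and to no other gene, and 6 of the 7 had such a probe set, out of 19938 genes with one on the array. The only Mbtps2 probe set also carries the name of another gene, so no value is given for the site-2 protease. A second Srebf2 probe set is shared with other genes and was not used.

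Liver RNA of 24 male litter mates, 24 weeks old and kept on regular chow, was hybridised to 24 Affymetrix Mouse Gene ST arrays, with 8 mice of each genotype and 1 array for each. Mice named alb-SREBP-1a∆P carried a transgene for the HA-tagged N-terminal domain of human SREBP-1a with its MAPK phosphorylation sites mutated, alb-SREBP-1a mice carried the same tagged domain with those sites intact, and C57Bl6 mice were the wild type of the common background strain. Both transgenes were driven by the albumin promoter, which is active in hepatocytes, and both encode a domain that is already soluble and needs neither transport nor cleavage. The comparisons describe how transcripts of the mouse's own processing machinery differ between livers with the SREBP-1a domain, with and without phosphorylation sites, and wild-type livers. Each construct was seen in a single group of mice. The sites therefore cannot be told apart from other differences between the lines, such as transgene level, insertion site or body fat. Values of the human transgene were not analysed here. Cross-hybridisation of its RNA to the mouse Srebf1 probe set was not tested.

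When sterols are scarce, SCAP escorts the SREBP precursor in COPII vesicles to the Golgi, where site-1 protease and then site-2 protease release the N-terminal domain that enters the nucleus. When sterols are plentiful, INSIG proteins bind SCAP and keep the complex in the endoplasmic reticulum. In the liver SREBP-1 is known mainly for genes of fatty acid synthesis and SREBP-2 for genes of cholesterol synthesis and uptake, Insig1 is itself a SREBP target gene, and Insig2 is transcribed largely without SREBP.

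The start regions of Insig1, Insig2, Srebf1 and Srebf2 are shown because these 4 genes encode the SREBP precursors and the INSIG proteins that retain them. From RefSeq (GRCm38.p6), 12 start sites were taken for the 7 genes. Srebf1 and Insig2 had 3 each, Scap 2, and Srebf2, Insig1, Mbtps1 and Mbtps2 1 each. These need not be all starts, because the RefSeq bounds of Srebf1, Insig2 and Mbtps1 reach farther upstream than the sites used. Each window runs from 250 bases before to 50 bases after a start and is printed 5′ to 3′ on the gene's strand. Capitals mark the sterol element ATCACCCCA, the E-box CACGTG, the CCAAT box and the GC box GGGCGG, each searched on both strands, so that a CCAAT box on the other strand reads ATTGG and a GC box CCGCCC. The first window is that of Insig1 at chr5:28071162-28071461, plus strand. Insig2 is shown at the most upstream of its 3 sites used, chr1:121332540-121332839, minus strand. Srebf1 is shown at the most downstream of its 3, chr11:60210422-60210721, minus strand, and Srebf2 at chr15:82147019-82147318, plus strand.
Insig1: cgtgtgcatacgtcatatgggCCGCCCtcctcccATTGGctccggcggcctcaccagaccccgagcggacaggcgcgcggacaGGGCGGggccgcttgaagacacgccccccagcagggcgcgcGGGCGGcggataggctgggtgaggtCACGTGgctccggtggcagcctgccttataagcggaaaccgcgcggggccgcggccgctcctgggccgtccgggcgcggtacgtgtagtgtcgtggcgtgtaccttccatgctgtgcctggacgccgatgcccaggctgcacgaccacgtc
Insig2: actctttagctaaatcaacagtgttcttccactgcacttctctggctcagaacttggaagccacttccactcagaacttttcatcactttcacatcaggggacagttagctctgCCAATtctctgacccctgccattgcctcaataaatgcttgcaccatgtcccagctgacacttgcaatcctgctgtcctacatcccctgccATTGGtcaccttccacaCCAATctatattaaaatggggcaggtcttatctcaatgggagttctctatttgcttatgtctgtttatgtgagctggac
Srebf1: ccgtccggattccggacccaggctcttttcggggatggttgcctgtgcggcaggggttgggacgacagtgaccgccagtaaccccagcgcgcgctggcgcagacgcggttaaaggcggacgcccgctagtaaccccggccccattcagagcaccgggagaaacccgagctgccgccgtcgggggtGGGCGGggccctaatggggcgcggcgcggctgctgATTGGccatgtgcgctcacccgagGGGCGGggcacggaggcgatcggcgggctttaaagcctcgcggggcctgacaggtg
Srebf2: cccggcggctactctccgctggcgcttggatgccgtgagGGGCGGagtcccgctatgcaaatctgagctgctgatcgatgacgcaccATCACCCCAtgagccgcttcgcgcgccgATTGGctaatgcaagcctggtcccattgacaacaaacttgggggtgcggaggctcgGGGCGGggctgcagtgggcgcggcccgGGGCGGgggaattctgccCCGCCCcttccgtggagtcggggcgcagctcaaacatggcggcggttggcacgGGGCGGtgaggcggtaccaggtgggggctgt
The Srebf2 window held the sterol element at −163 from the start, a CCAAT box at −135 and 5 GC boxes. It was the only 1 of the 12 windows with ATCACCCCA, which occurs in 0.28% of 32851 promoters of the same length, and none of the 12 held the second form searched, TCACNCCAC (1.24% of promoters), which overlaps the first in all but its end letters. In the Insig1 window an E-box stood at −101 (7.15% of promoters hold one), a CCAAT box at −216 and 3 GC boxes. The Insig2 window shown held 3 CCAAT boxes (37.4% of promoters hold at least 1) and no GC box (35.7%). Each of the other Insig2 windows held 1 GC box and no CCAAT box. The Srebf1 window shown held a CCAAT box at −30 and 2 GC boxes. Its most upstream window held 1 CCAAT box and no GC box, and its middle window 3 GC boxes and no CCAAT box. The motifs were chosen after the windows had been seen, a match is a description of the letters only, and which of the start sites a probe set reads was not tested.

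All 6 measured transcripts were well above the typical signal: their means over 24 arrays ranked between the 85.7th percentile of all probe sets (Srebf2) and the 98.6th (Insig1). Markers of hepatocytes averaged 12.88 to 13.03 in alb-SREBP-1a∆P, 12.87 to 13.12 in alb-SREBP-1a and 13.08 to 13.27 in C57Bl6 livers on the log2 scale, against array medians of 5.54 to 5.81. Of 8 such markers, 5 fell in alb-SREBP-1a∆P and 2 in alb-SREBP-1a livers against C57Bl6, while 3 and 4 of 8 macrophage markers rose. Of all probe sets 20.2% and 3.98% fell and 27% and 6.77% rose. Among the 5075 probe sets at least as bright as Srebf2, 49.5% and 12.9% fell and 12.1% and 13.7% rose. Of 7 lymphocyte markers 2 and 1 rose, and of 7 sinusoidal endothelial markers 1 and 2 rose, with 1 fall in alb-SREBP-1a∆P. Of 7 stellate cell markers 1 fell in alb-SREBP-1a∆P, and no cholangiocyte marker passed in either line. Under 3 other scalings of the arrays (quantile normalization, median centring and cyclic loess) 3 to 6 hepatocyte markers fell and 1 to 5 macrophage markers rose in alb-SREBP-1a∆P. The 8 macrophage markers averaged 7.81 to 8.55 in alb-SREBP-1a∆P, 7.83 to 8.64 in alb-SREBP-1a and 7.58 to 8.15 in C57Bl6 livers, and between the lines 3 of them fell in alb-SREBP-1a∆P as deposited, 5 with median centring of the arrays and none after quantile normalization or cyclic loess. Of all probe sets 21.4% were lower between the lines, and 51.3% of the bright ones. The part of these markers in the values below was not tested. In whole liver, fewer cells of a type and less RNA per cell cannot be told apart. On the first principal component alb-SREBP-1a∆P replicate 4 stood apart at 15.7, against 55.0 to 90.3 for the other mice of that line. The members called in alb-SREBP-1a∆P against C57Bl6 numbered 4 with and without that mouse.

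In alb-SREBP-1a∆P livers the INSIG transcripts moved in opposite directions: Insig2 fell to 0.444 times its C57Bl6 level and Insig1 rose, while Srebf1 and Mbtps1 fell. In alb-SREBP-1a livers Insig1 and Srebf2 rose and Insig2 fell. Between the lines Srebf1, Srebf2 and Insig2 were lower in alb-SREBP-1a∆P. Only the calls of Insig2 in alb-SREBP-1a∆P against C57Bl6 and of Srebf1 between the lines held in every alternative fit. Every other call named here was lost in some alternative fit, as given below. Changes are log2 fold changes ± standard error from limma, 8 against 8 arrays, and a transcript was said to rise or fall where the p adjusted across the 35556 probe sets was under 0.05.

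Against C57Bl6, 1 of the 6 rose and 3 fell in alb-SREBP-1a∆P, beside 27% of all probe sets that rose and 20.2% that fell (47.2% in either direction). The background depends on brightness. Among the 5075 probe sets at least as bright as the dimmest of the 6, 12.1% rose and 49.5% fell, with a median change of −0.23, so that the share of members that fell, 3 of 6, was close to the share of equally bright probe sets. In alb-SREBP-1a, 2 of the 6 rose and 1 fell, beside 6.77% and 3.98% of all probe sets (10.8% in either direction) and 13.7% and 12.9% of the bright ones, whose median change was −0.0037. Between the lines none of the 6 was higher in alb-SREBP-1a∆P and 3 were lower, beside 22.8% and 21.4% of all probe sets (44.2% in either direction) and 4.93% and 51.3% of the bright ones, with a median of −0.23. At an unadjusted p under 0.05, 4, 5 and 4 of the 6 would pass in these comparisons, which share arrays (both lines were set against the same C57Bl6 arrays) and are therefore not independent.

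**Figure D1:**
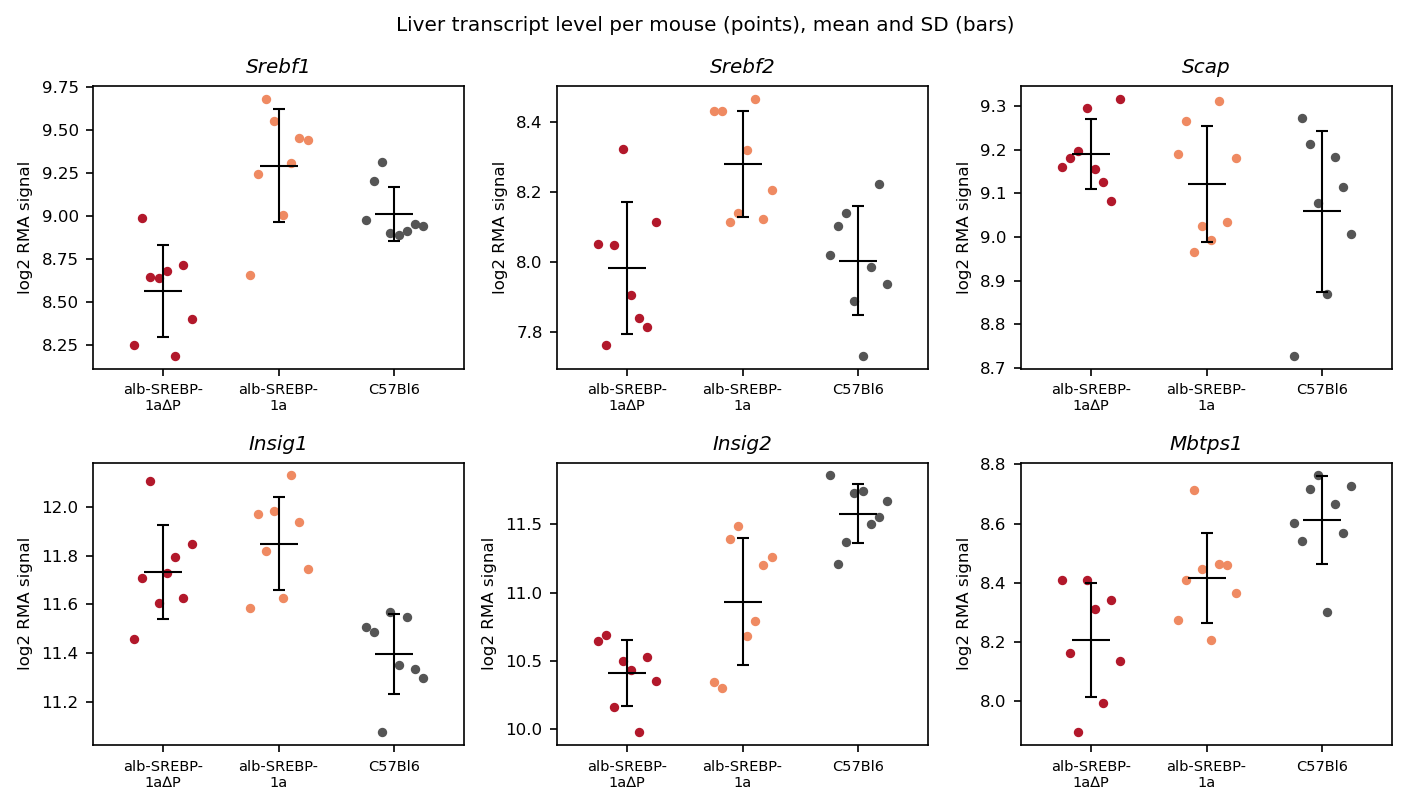
Log2 RMA signal (y axis) of the 6 measured transcripts in each of 24 livers, 1 point per mouse, with mean and SD as bars, grouped on the x axis as alb-SREBP-1a∆P, alb-SREBP-1a and C57Bl6. Insig2 lies at 9.97 to 10.69 in alb-SREBP-1a∆P and 10.30 to 11.49 in alb-SREBP-1a livers, against 11.21 to 11.86 in C57Bl6 livers, and each panel has its own y range.

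Srebf1 encodes the precursor of SREBP-1a and SREBP-1c, which the probe set does not separate. Its signal ran from 8.19 to 8.99 with a median of 8.64 in alb-SREBP-1a∆P livers, from 8.66 to 9.68 with a median of 9.38 in alb-SREBP-1a livers, and from 8.89 to 9.31 with a median of 8.95 in C57Bl6 livers. The C57Bl6 mice lay close together, and the medians of the 2 transgenic lines were on either side of theirs. The range of the alb-SREBP-1a mice covered that of the C57Bl6 mice. Below every C57Bl6 mouse lay 7 of 8 alb-SREBP-1a∆P mice. Of the 8 alb-SREBP-1a mice, 4 lay above every C57Bl6 mouse and 1 below. Srebf1 fell by 0.45 ± 0.11 in alb-SREBP-1a∆P against C57Bl6 (adjusted p = 0.00329). This call was lost after quantile normalization (−0.26, adjusted p = 0.0872) and after cyclic loess (−0.19, adjusted p = 0.220). In alb-SREBP-1a the change was 0.28 ± 0.12 (adjusted p = 0.168, 95% interval 0.02 to 0.54). Without alb-SREBP-1a replicate 1, whose exclusion raised it to 0.37, it passed (adjusted p = 0.0244), as it did with array weights (0.36, adjusted p = 0.0249). The widest contrast was between the lines, where Srebf1 fell by 0.73 ± 0.14 in alb-SREBP-1a∆P (adjusted p = 0.00109) and 5 of 8 mice lay below every alb-SREBP-1a mouse. That call held in all 12 alternative settings, between −0.90 and −0.46, and without any single mouse.

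Srebf2, the precursor of SREBP-2, moved less. Its signal was 7.76 to 8.32 with a median of 7.98 in alb-SREBP-1a∆P livers, 8.12 to 8.47 with a median of 8.26 in alb-SREBP-1a livers, and 7.73 to 8.22 with a median of 8.004 in C57Bl6 livers. The alb-SREBP-1a mice were the high group, and the other genotypes covered nearly the same range. Srebf2 rose by 0.28 ± 0.08 in alb-SREBP-1a against C57Bl6 (adjusted p = 0.0374), with 4 of 8 mice above every C57Bl6 mouse. That call was lost in 9 of 16 fits without a single mouse (without C57Bl6 replicate 1, 4, 5, 6 or 8 or alb-SREBP-1a replicate 1, 2, 5 or 6, adjusted p 0.0551 to 0.0737). In alb-SREBP-1a∆P against C57Bl6 the change was −0.02 ± 0.09 (adjusted p = 0.866, 95% interval −0.21 to 0.17), and it turned to a rise of 0.24 (adjusted p = 0.0400) after cyclic loess. Between the lines Srebf2 fell by 0.30 ± 0.09 in alb-SREBP-1a∆P (adjusted p = 0.0153), a call lost after quantile normalization (−0.09, adjusted p = 0.512) and after cyclic loess (−0.01, adjusted p = 0.955).

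Scap, the sterol-sensing escort of both precursors, passed the test in no comparison as deposited. It read 9.08 to 9.32 with a median of 9.17 in alb-SREBP-1a∆P livers, 8.97 to 9.31 with a median of 9.11 in alb-SREBP-1a livers, and 8.73 to 9.27 with a median of 9.10 in C57Bl6 livers. All groups overlapped. Its changes were 0.13 ± 0.08 in alb-SREBP-1a∆P (adjusted p = 0.189, 95% interval −0.04 to 0.30) and 0.06 ± 0.08 in alb-SREBP-1a (adjusted p = 0.709, −0.12 to 0.24) against C57Bl6, and 0.07 ± 0.07 between the lines (adjusted p = 0.428, −0.08 to 0.21). These intervals hold for the values as deposited. After quantile normalization Scap was higher in alb-SREBP-1a∆P, by 0.29 against C57Bl6 (adjusted p = 0.0129) and by 0.25 against alb-SREBP-1a (adjusted p = 0.0143), and after cyclic loess by 0.38 (adjusted p = 0.00144) and 0.33 (adjusted p = 0.00242).

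Insig1, the retention protein whose own gene answers to SREBP, rose in both lines. Its signal ran from 11.46 to 12.11 with a median of 11.72 in alb-SREBP-1a∆P livers, from 11.59 to 12.13 with a median of 11.88 in alb-SREBP-1a livers, and from 11.07 to 11.57 with a median of 11.42 in C57Bl6 livers. Every alb-SREBP-1a mouse and 7 of 8 alb-SREBP-1a∆P mice exceeded every C57Bl6 mouse. In alb-SREBP-1a the rise was 0.45 ± 0.09 (adjusted p = 0.0035). It was the only 1 of the 6 without overlap in that comparison, in which 2.03% of all probe sets lay above C57Bl6 and 1.03% below without overlap. In alb-SREBP-1a∆P it was 0.34 ± 0.09 (adjusted p = 0.00777), a call lost when each array was centred on its median (0.18, adjusted p = 0.139). Set against the median change of all probe sets, the rise lay between 0.44 and 0.50 in alb-SREBP-1a and between 0.23 and 0.50 in alb-SREBP-1a∆P over 4 scalings of the arrays. The deposited and the median-centred values are the same in this measure by construction. The lines differed by −0.12 ± 0.10 (adjusted p = 0.348, 95% interval −0.33 to 0.09), a difference that did not pass the test. It passed with each array centred on its median (−0.28, adjusted p = 0.0336) and was 0.02 after cyclic loess.

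Insig2, the second retention protein, carried the largest change of the set. It stood at 9.97 to 10.69 with a median of 10.47 in alb-SREBP-1a∆P livers, 10.30 to 11.49 with a median of 10.998 in alb-SREBP-1a livers, and 11.21 to 11.86 with a median of 11.61 in C57Bl6 livers. No alb-SREBP-1a∆P mouse reached the lowest C57Bl6 mouse, and 5 of 8 alb-SREBP-1a mice lay below it. Insig2 fell by 1.17 ± 0.11 in alb-SREBP-1a∆P (adjusted p = 1.05e-06), and ranked 331 of 35556 probe sets by p. Insig2 was the only 1 of the 6 without overlap between these groups; 6.47% of all probe sets lay below C57Bl6 and 5.34% above without overlap. The call held in all 11 alternative settings, between −1.33 and −0.99. In alb-SREBP-1a the fall was 0.65 ± 0.17 (adjusted p = 0.0206). The line was uneven for this transcript: replicates 1 to 8 read 10.34, 10.30, 11.39, 11.49, 10.68, 10.79, 11.20 and 11.26, an SD of 0.47 against 0.24 in alb-SREBP-1a∆P and 0.21 in C57Bl6 livers. Without replicates 1 and 2, left out with earlier results known, the fall was 0.44 and did not pass (adjusted p = 0.0577). Between the lines Insig2 fell by 0.52 ± 0.18 in alb-SREBP-1a∆P (adjusted p = 0.0243) with 2 of 8 mice below every alb-SREBP-1a mouse, and no member separated the lines without overlap (1.88% of all probe sets did so upward and 4.06% downward). This call was lost after quantile normalization (adjusted p = 0.103) and cyclic loess (adjusted p = 0.147).

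Mbtps1 encodes site-1 protease, the first of the enzymes to cut the precursor. It read 7.90 to 8.41 with a median of 8.24 in alb-SREBP-1a∆P livers, 8.21 to 8.71 with a median of 8.43 in alb-SREBP-1a livers, and 8.30 to 8.76 with a median of 8.64 in C57Bl6 livers. The medians were ordered alb-SREBP-1a∆P, alb-SREBP-1a, C57Bl6 from low to high, but neighbouring groups overlapped. Against C57Bl6 it fell by 0.40 ± 0.09 in alb-SREBP-1a∆P (adjusted p = 0.00191), with 4 of 8 mice below every C57Bl6 mouse, and the call was lost after cyclic loess (−0.14, adjusted p = 0.147). The change in alb-SREBP-1a was −0.19 ± 0.08 (adjusted p = 0.143, 95% interval −0.36 to −0.02), and between the lines it was −0.21 ± 0.09 (adjusted p = 0.0726, −0.40 to −0.02). Neither passed as deposited. The first passed after quantile normalization (adjusted p = 0.0295) and cyclic loess (adjusted p = 0.0413). The second depended on the setting and had no settled direction: it was 9.78e-05 after quantile normalization (adjusted p = 0.999) and 0.07 after cyclic loess (adjusted p = 0.499), but passed as a fall with each array centred on its median (−0.38, adjusted p = 0.00809), with array weights (adjusted p = 0.0270), with all 24 arrays in one fit (adjusted p = 0.0482) and without replicate 5 of alb-SREBP-1a or replicate 1 or 4 of alb-SREBP-1a∆P (adjusted p 0.0448 to 0.0488).

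**Figure D2:**
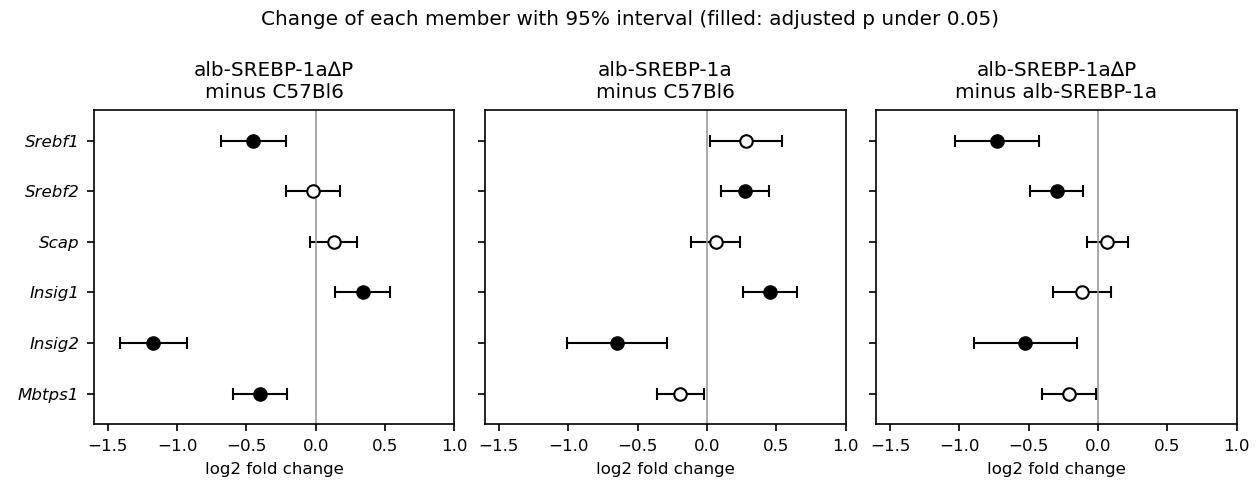
Log2 fold change (x axis) of each measured transcript (y axis) with its 95% interval in the 3 comparisons, 8 against 8 arrays. Filled points have an adjusted p under 0.05, and Insig2 in alb-SREBP-1a∆P minus C57Bl6, at −1.17, is the farthest from 0.

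Many bright probe sets were lower in alb-SREBP-1a∆P, and several values of the members depended on how arrays were scaled to each other. The SD over an array was 2.018 to 2.093 in alb-SREBP-1a∆P, 2.143 to 2.232 in alb-SREBP-1a and 2.184 to 2.248 in C57Bl6 livers. Array medians were 5.69 to 5.81 in alb-SREBP-1a∆P and at most 5.65 in the other genotypes. Array processing as a source was not tested, and here it cannot be told apart from the genotype. Quantile normalization, median centring of the arrays and cyclic loess moved the median change of all probe sets by −0.14, −0.16 and −0.11 in alb-SREBP-1a∆P against C57Bl6, by −0.03, 0.01 and −0.02 in alb-SREBP-1a against C57Bl6, and by −0.10, −0.17 and −0.085 between the lines. Taken relative to that median, the fall of Insig2 in alb-SREBP-1a∆P lay between −1.28 and −0.99 over the 4 scalings. In this measure the deposited and the median-centred values are the same by construction. The median is that of all probe sets, 0.11 as deposited in alb-SREBP-1a∆P against C57Bl6. For probe sets at least as bright as the dimmest member it was −0.23, and no change was taken relative to that. In alb-SREBP-1a the fall of Insig2 lay between −0.66 and −0.61 and the rise of Srebf2 between 0.26 and 0.27, although that rise did not pass after quantile normalization (adjusted p = 0.0748) or cyclic loess (adjusted p = 0.0609). Srebf1 between the lines lay between −0.81 and −0.46. Wider ranges were found in alb-SREBP-1a∆P against C57Bl6 for Srebf1, −0.56 to −0.19, Mbtps1, −0.51 to −0.13, and Scap, 0.02 to 0.39.

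**Figure D3:**
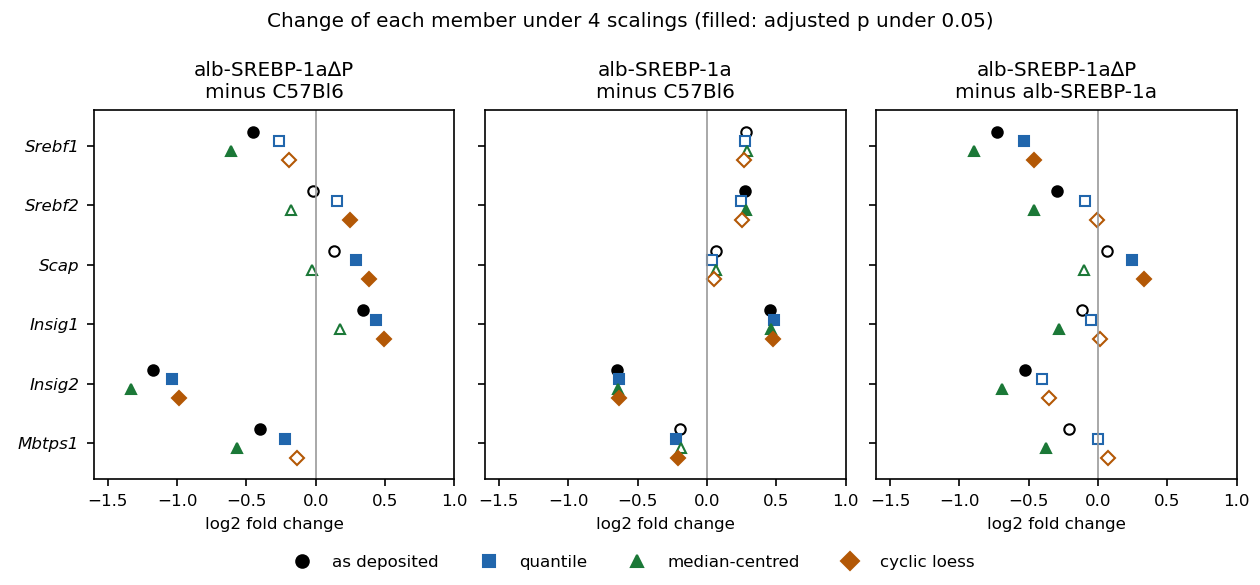
Log2 fold change (x axis) of each measured transcript (y axis) in the 3 comparisons with the values as deposited and after 3 other scalings of the arrays, each scaling with its own marker. Filled markers have an adjusted p under 0.05, and the markers of Srebf2 in alb-SREBP-1a∆P minus C57Bl6 lie on both sides of 0 (−0.02 as deposited, 0.24 after cyclic loess).

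Differences between 2 transcripts of the same array do not depend on how that array is centred. Insig1 minus Insig2 ran from 0.81 to 1.95 with a median of 1.20 in alb-SREBP-1a∆P livers, from 0.43 to 1.67 with a median of 0.84 in alb-SREBP-1a livers, and from −0.39 to 0.28 with a median of −0.26 in C57Bl6 livers. Neither line overlapped C57Bl6, and the lines overlapped each other. This difference reuses the values given above for 2 transcripts that moved in opposite directions, so the separation is not a further test. The share of other gene pairs that separate was not computed. Srebf1 minus Insig2 was −2.40 to −1.51 in alb-SREBP-1a∆P, −1.94 to −1.06 in alb-SREBP-1a and −2.88 to −2.01 in C57Bl6 livers, where alb-SREBP-1a∆P overlapped C57Bl6. Probe sets differ in how strongly they respond, so only the shift between genotypes can be read from these differences, not which transcript is the more abundant. Srebf1 minus Srebf2 was 0.20 to 1.23 with a median of 0.47 in alb-SREBP-1a∆P livers, 0.23 to 1.57 with a median of 1.04 in alb-SREBP-1a livers, and 0.73 to 1.17 with a median of 1.01 in C57Bl6 livers, and all 3 genotypes overlapped.

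**Figure D4:**
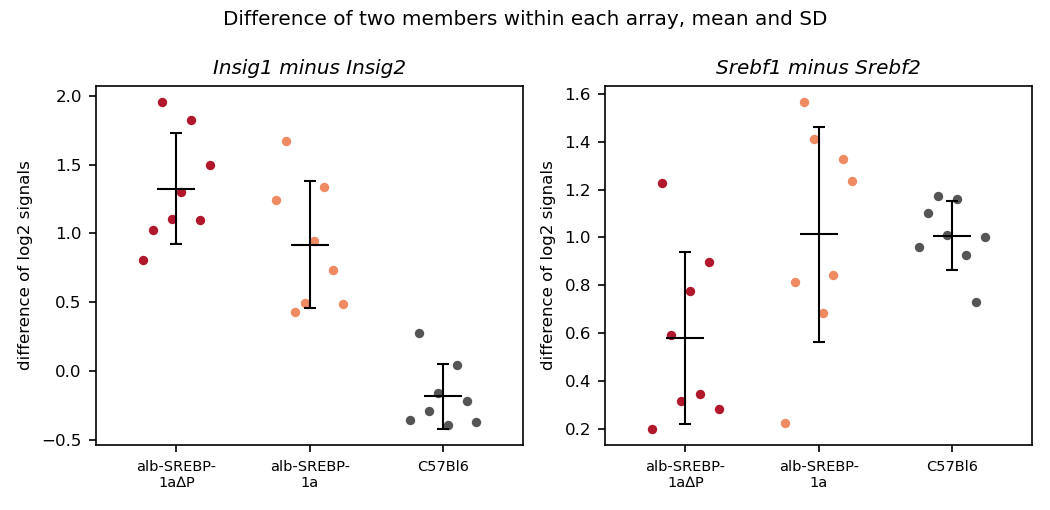
Difference of 2 log2 signals within each array (y axis), 1 point per mouse with mean and SD as bars, for alb-SREBP-1a∆P, alb-SREBP-1a and C57Bl6 livers (x axis). The left panel shows Insig1 minus Insig2, where both lines lie above the highest C57Bl6 value of 0.28, and the right panel Srebf1 minus Srebf2, where the genotypes overlap.

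Within a genotype, the 15 pairs of members were compared across 8 mice, which gives 45 relations over the 3 genotypes, each tested by exact permutation over 40320 pairings, two-sided. In alb-SREBP-1a∆P livers Insig1 and Mbtps1 ran against each other (exact permutation, r = −0.895, p = 0.00104, adjusted p = 0.0469, and rho = −0.952, p = 0.00114, adjusted p = 0.0257). With the 2 mice farthest from the Insig1 median left out, r was −0.815. Replicate 3 of this line had the highest Insig1 and the lowest Mbtps1 signal, and the highest array median (5.81). Replicates 1 and 4, with the highest Mbtps1 and lowest Insig1 signals, had the lowest array medians (5.71 and 5.69). The relation was not recomputed under another scaling, and the part of the array-wide signal in it was not tested. Scap and Insig2 ran against each other in C57Bl6 livers (exact permutation, r = −0.900, p = 0.00231, adjusted p = 0.0519, and rho = −0.976, p = 0.000397, adjusted p = 0.0179), with r = −0.928 without 2 mice. No other relation passed after adjustment by either measure, whereas 10 of the 45 by Pearson and 8 by Spearman had an unadjusted p under 0.05. In the uneven alb-SREBP-1a line, Insig2 followed Srebf1 (exact permutation, r = 0.827, p = 0.00655, adjusted p = 0.0982) and ran against Srebf2 (r = −0.895, p = 0.0102, adjusted p = 0.114), which did not pass. Processing dates were not given in the sources used here, so no relation was computed within batches.

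For each member, the genes with the most similar pattern across 24 arrays were listed after the genotype means had been subtracted, over 11513 genes above the median level. The nearest to Srebf1 were Alg2 (r = 0.835), Mtmr4 (r = 0.786) and Nfya (r = 0.768), the last a subunit of the factor that binds CCAAT boxes. Srebf2 was closest to Nisch (r = 0.822), Sun2 (r = 0.808) and Mrpl38 (r = 0.806), and Scap to the glutamine transporter Slc38a3 (r = 0.886), Pcbp4 (r = 0.831) and Midn (r = 0.827). Insig1 was closest to the deacetylase Hdac8 (r = 0.758), Rfc3 (r = 0.747) and Cpne2 (r = 0.746). Insig2 was closest to the melatonin receptor Mtnr1a (r = 0.863), the succinate receptor Sucnr1 (r = 0.844) and Ddah1 (r = 0.798). The nearest to Mbtps1 were the RNA-binding protein Elavl1 (r = 0.884), the phosphatase Dusp16 (r = 0.873) and Ttc13 (r = 0.859). These are the highest of many values on the same arrays and are given as description.

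Partners along the route of the precursor were counted by lists, each gene by its brightest probe set. For comparison, 25.2% of all genes so counted rose and 25.9% fell in alb-SREBP-1a∆P, 6.26% rose and 4.4% fell in alb-SREBP-1a, and 22.2% were higher and 28.4% lower in alb-SREBP-1a∆P between the lines, with medians over all genes of 0.06, −0.0052 and 0.03. Among the 5075 probe sets at least as bright as Srebf2, 12.1% rose and 49.5% fell in alb-SREBP-1a∆P, and 13.7% and 12.9% in alb-SREBP-1a. Between the lines 4.93% of them were higher and 51.3% lower. Neither background was matched to the lists for brightness. Of 10 genes of the COPII coat, which buds the vesicles that carry SCAP and its cargo, none rose and 4 fell in alb-SREBP-1a∆P against C57Bl6 (median −0.06), 5 rose and 1 fell in alb-SREBP-1a (median 0.20), and 8 were lower between the lines (median −0.28). The small GTPase gene Sar1b, which starts coat assembly, fell by 1.13 ± 0.10 in alb-SREBP-1a∆P (adjusted p = 2.78e-07) and by 0.66 ± 0.11 in alb-SREBP-1a (adjusted p = 0.000856), with every mouse of either line below every C57Bl6 mouse. Its paralog Sar1a was lower between the lines by 0.41 ± 0.09, a call lost after cyclic loess (adjusted p = 0.117), and the cargo adaptor Sec24a rose by 0.26 ± 0.06 in alb-SREBP-1a. After cyclic loess the COPII counts in alb-SREBP-1a∆P against C57Bl6 turned to 5 that rose and 1 that fell.

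Of 9 genes that ubiquitinate INSIG proteins or extract them from the membrane, 1 rose and 6 fell in alb-SREBP-1a∆P (median −0.40), 1 rose and 1 fell in alb-SREBP-1a (median −0.06), and 7 were lower between the lines (median −0.29). Rnf139, a ubiquitin ligase of the endoplasmic reticulum, fell by 0.65 ± 0.09 in alb-SREBP-1a∆P against C57Bl6 and was lower by 0.46 ± 0.08 between the lines, the second a call lost after cyclic loess (adjusted p = 0.0996). Syvn1, the ligase of the general degradation pathway, rose by 0.71 ± 0.12 in alb-SREBP-1a∆P and by 0.73 ± 0.15 in alb-SREBP-1a. The conjugating enzyme Ube2g2 fell by 0.50 ± 0.08 in alb-SREBP-1a∆P as deposited. In alb-SREBP-1a it fell by 0.19 ± 0.06, but did not pass there with median centring (adjusted p = 0.0886). Of 6 further partners in the endoplasmic reticulum and Golgi, 5 fell in alb-SREBP-1a∆P (median −0.47), among them the ligase Rnf5 by 0.47 ± 0.07, and none passed in alb-SREBP-1a (median −0.19). Between the lines 4 of the 6 were lower (median −0.30), Erlin2 by 0.70 ± 0.12. Of 8 other substrates of the site proteases, 2 rose and 4 fell in alb-SREBP-1a∆P (median −0.23), with Creb3 at −0.51 ± 0.08 and Creb3l2 at 0.51 ± 0.11, and 2 rose in alb-SREBP-1a (median 0.01), with Creb3l2 at 0.50 ± 0.11. Between the lines 5 were lower (median −0.27), among them Gnptab, which marks lysosomal enzymes, at −0.38 ± 0.07, but 1 was lower after quantile normalization and none after cyclic loess. Creb3l4 was higher as deposited, at 0.34 ± 0.09, but that call was lost under each of the 3 other scalings (0.06 to 0.17, adjusted p 0.132 to 0.661).

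The next lists act on the nuclear domain or on Srebf1. Of 17 genes of its turnover and cofactors, 4 rose and 8 fell in alb-SREBP-1a∆P (median −0.23), 5 rose and none fell in alb-SREBP-1a (median 0.12), and 12 were lower between the lines (median −0.34). In alb-SREBP-1a∆P the CCAAT-binding subunit Nfyb fell by 0.79 ± 0.13 against C57Bl6 and by 0.79 ± 0.12 against alb-SREBP-1a. Usf2, which binds E-boxes, rose by 0.34 ± 0.08 in alb-SREBP-1a∆P (not with median centring, adjusted p = 0.0923) and by 0.40 ± 0.07 in alb-SREBP-1a. The Mediator subunit Med15 rose by 0.47 ± 0.07 in alb-SREBP-1a and, as deposited, by 0.21 ± 0.08 in alb-SREBP-1a∆P. MAP kinases phosphorylate the sites mutated in alb-SREBP-1a∆P, and MAPK kinases activate the MAP kinases. Of 11 genes of both kinds, 4 fell in that line (median −0.20), Map2k4 by 0.75 ± 0.10, and 1 rose in alb-SREBP-1a (median −0.02), Map2k2 by 0.27 ± 0.07, a call lost after quantile normalization (adjusted p = 0.0690) and cyclic loess (adjusted p = 0.0563). Between the lines 5 were lower (median −0.14), Map2k4 by 0.67 ± 0.11. Of 10 genes of the LXR and insulin inputs to Srebf1, 2 rose and 5 fell in alb-SREBP-1a∆P (median −0.18), 3 rose in alb-SREBP-1a (median 0.03) and 5 were lower between the lines (median −0.21). After quantile normalization and after cyclic loess no gene of this list passed as lower in alb-SREBP-1a∆P against C57Bl6, where 2 and 3 rose, or between the lines. The CREB coactivator Crtc2 rose by 0.57 ± 0.08 in alb-SREBP-1a∆P and by 0.78 ± 0.07 in alb-SREBP-1a, and by its deposited values the insulin receptor substrate Irs1 fell by 0.60 ± 0.17 in alb-SREBP-1a∆P and Mtor was lower between the lines by 0.41 ± 0.08. Neither of the last pair passed after quantile normalization (adjusted p = 0.0545 for Irs1 and 0.0714 for Mtor) or cyclic loess (0.103 and 0.256).

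Target genes of the pathway were counted last. Of 13 sterol genes, 1 rose and 3 fell in alb-SREBP-1a∆P (median −0.11), 6 rose and none fell in alb-SREBP-1a (median 0.33), and 7 were lower between the lines (median −0.30). Nsdhl rose in both lines, by 0.27 ± 0.07 in alb-SREBP-1a∆P and by 0.36 ± 0.08 in alb-SREBP-1a, while lanosterol synthase Lss fell by 0.51 ± 0.11 in alb-SREBP-1a∆P and lanosterol demethylase Cyp51 was lower between the lines by 0.44 ± 0.09. Nsdhl did not pass in alb-SREBP-1a∆P with median centring (adjusted p = 0.236), nor Lss (0.0603) or Cyp51 (0.115) after cyclic loess. Of 15 fatty acid genes, 7 fell in alb-SREBP-1a∆P (median −0.24), 1 rose and 3 fell in alb-SREBP-1a (median −0.02), and 2 were lower between the lines (median −0.04). ATP citrate lyase Acly fell in both lines, by 0.56 ± 0.13 in alb-SREBP-1a∆P and by 0.58 ± 0.13 in alb-SREBP-1a. Acetyl-CoA synthetase Acss2 also fell in both as deposited, by 0.46 ± 0.12 in alb-SREBP-1a∆P and by 0.70 ± 0.15 in alb-SREBP-1a. Mid1ip1, which promotes the assembly of acetyl-CoA carboxylase, rose by 0.37 ± 0.10 in alb-SREBP-1a and was lower between the lines by 0.68 ± 0.13. The falls in alb-SREBP-1a∆P depended on scaling: after cyclic loess 1 of 15 fatty acid genes fell, and 3 of 13 sterol genes rose with none that fell, while in alb-SREBP-1a 5 of 13 sterol genes rose under each of the 3 other scalings. Between the lines, 0 to 4 genes of a list were lower after cyclic loess, while 13 of 13 sterol genes were lower with median centring.

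**Figure D5:**
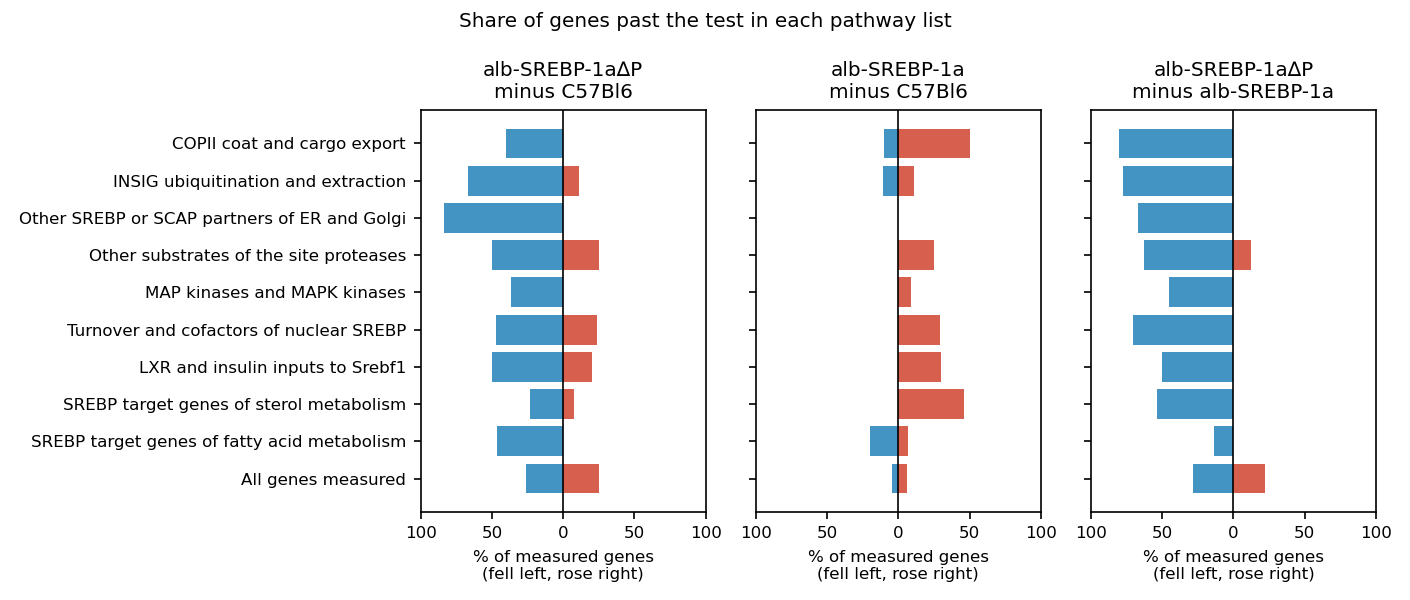
Share of the measured genes of each list (y axis) that rose (right of 0) or fell (left of 0), in percent of the list (x axis), in the 3 comparisons, with all genes measured as the last bar. In alb-SREBP-1a minus C57Bl6 6 of 13 sterol target genes rose, and in alb-SREBP-1a∆P minus alb-SREBP-1a 8 of 10 COPII genes were lower. The bars hold for the values as deposited, and after cyclic loess 1 of those 10 genes was lower. The bar of all genes was not matched to the lists for brightness.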

How the data were processed

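Total liver RNA of 24 mice was read on Affymetrix Mouse Gene ST arrays, 8 per genotype. For 35556 probe sets the authors deposited log2 signals, made with RMA in Affymetrix Expression Console per the submitters' processing notes. RMA settings and the annotation build were not given in the sources used here, so gene coordinates are not printed. Of the probe sets, 21789 carry 1 gene symbol and 1621 carry several. The groups come from the sample titles, and no array was left out. The highest correlation between 2 arrays was 0.990. Pairs of genotypes were compared by limma 3.58.1 under R 4.3.3 (lmFit and eBayes, two-sided, Benjamini-Hochberg over all probe sets, adjusted p under 0.05), and p-values reflect the spread among these mice. The number of arrays limits the precision. The fit was tested on simulated data before use.

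Members, gene lists and settings were chosen with earlier results of these data known. Named are all members, in each list the gene with the smallest p in each direction and comparison, and the 3 genes most like each member. Start regions came from RefSeq (GRCm38.p6). Alternatives were a single fit of 24 arrays, a block for replicate number, centring on the median, quantile and cyclic loess normalization, bright probe sets only, a variance trend, array weights, 1 probe set per gene, the methods' t-test and arrays left out. Brightness background, and list counts and named list genes under other scalings, were added after the fits. Some listed genes were not analysed here. Python 3.11.15, numpy 2.4.6 and matplotlib 3.10.9 served for tables and figures.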

Additional observations from a re-analysis of the deposited data

How the results depend on the processing

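Insig2 in alb-SREBP-1a∆P against C57Bl6 and Srebf1 between the lines kept direction and call in every alternative run. Srebf2 in alb-SREBP-1a∆P against C57Bl6 reversed after cyclic loess (0.24), and the cause was not tested. The members called in alb-SREBP-1a∆P against C57Bl6 (4), in alb-SREBP-1a against C57Bl6 (3) and between the lines (3) each came to 1 at the methods' unadjusted p under 0.05 with a 1.5-fold change: Insig2, Insig2 and Srebf1. Between the lines they were 5 with each array centred on its median. Leaving out single mice gave 4 to 4, 2 to 3 and 3 to 4 members. Probe sets called numbered 16777 in alb-SREBP-1a∆P against C57Bl6, but 11117 after cyclic loess, 9858 among probe sets above the median level and 10895 with 1 probe set per gene, the last 2 with fewer tested, and 5925 at the methods' thresholds (15009 to 16939 without single mice). In alb-SREBP-1a against C57Bl6 they numbered 3824, but 2418 with 1 probe set per gene and 1317 at the methods' thresholds (3020 to 3799 without single mice). Between the lines they numbered 15712, but 8319 after quantile normalization, 7706 after cyclic loess, 10136 above the median level and 4098 at the methods' thresholds (13395 to 16594 without single mice). Calls were higher in 57.1% in alb-SREBP-1a∆P against C57Bl6 (40.6% after quantile normalization, 31.9% centred on the median), 63% in alb-SREBP-1a (51.6% after quantile normalization) and 51.6% between the lines (41.1% and 23.9%).

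Sample titles number the mice but do not say that equal numbers are pairs, and the correlations that follow cannot decide it. Same-numbered mice of 2 genotypes correlated at −0.0681 to 0.131, −0.116 to 0.279 and −0.0876 to 0.159 in their deviations, and 3, 2 and 2 of 8 correlated best with their own number. With the replicate number as a block, 4, 2 and 1 members passed and 16207, 3163 and 13749 probe sets. Srebf2 did not pass in alb-SREBP-1a (adjusted p = 0.0816) or between the lines (0.0511), nor Insig2 between the lines (0.0509), with limma as in the other fits.

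Without alb-SREBP-1a replicates 1 and 2, 2 of 6 members passed against C57Bl6 and 2 between the lines: Srebf1 rose (0.40, adjusted p = 0.0281), and Srebf2 (0.126) and Insig2 (0.0577) did not pass against C57Bl6, nor Srebf2 between the lines (0.0602). Each member has 1 probe set of its own, so the mean over several was not run.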

Other observations

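Mir33, a microRNA gene known to lie in an intron of Srebf2, has its own probe set and was looked up after the values of Srebf2 had been seen. Its mean over 24 arrays was 3.84, below every array median. Its changes were −0.02 ± 0.12 in alb-SREBP-1a∆P and 0.01 ± 0.16 in alb-SREBP-1a against C57Bl6 and −0.03 ± 0.13 between the lines, and none passed the test.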
